A study of Pan troglodytes and Macaca mulatta with 12 samples.

Results

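Lymphoblastoid cell lines of 6 chimpanzees, of the 12 lines in the series, were compared with each other. The 6 were chosen by the species in their labels alone, and the question put to them was how far gene expression differs from one chimpanzee line to the next and which genes differ together. Each line comes from a separate individual (3 females and 3 males), with 1 RNA sequencing library per line. The lines carry no treatment and no engineered allele in the labels, which give neither the animals' ages nor how each line was made. All were grown in the same serum-supplemented medium, and total RNA was sequenced with no strand marking named in the labels. The lines are called line 1 to line 6 below, and the numbers only name them. With 1 library per line, the individual, its line, the state of the culture and the library cannot be told apart.

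Lymphoblastoid lines are B lymphocytes that have been made to divide without limit in culture, as a rule by infection with Epstein-Barr virus or a related herpesvirus. Such cells resemble activated B cells: they make immunoglobulin and present antigen, and they signal through the NF-kB pathway. Interferon response genes, chemokines and cell cycle genes are known to vary between lines and with the state of a culture.

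The deposited files give human-style gene identifiers without names, and 0 of the 15503 identifiers matched the chimpanzee name tables. The programmes named above, and the markers of B cells and of other cell types, could therefore not be measured by name, and the label "lymphoblastoid" was not checked against markers. Genes are described by chromosome, start and end as the files give them. The sources used here name no genome build. In bulk RNA of this kind, fewer cells making a transcript and less of it per cell cannot be told apart, and neither can overlapping or antisense genes, or reads split between near-identical copies.

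Library totals ran from 1434241 counts in line 1 to 4751954 in line 6, and the other 4 lines held between 2412430 and 2576148. After thinning to the smallest total, between 11833 genes (line 1) and 12469 genes (line 5) had at least 1 count. No pair of libraries agreed within counting noise. For the closest pair, lines 2 and 5, the chi-square over genes was 16.1 for each degree of freedom, and for the next, lines 3 and 4, it was 16.7. The p-values below measure only the spread between these 6 libraries.

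Most genes differed modestly between the 6 lines, while a small set ranged from hardly detected in some lines to high levels in others. Levels are given as CPM, counts relative to each library's scaled total, and 9640 genes averaging 4 CPM or more were examined. They held 99.5% of all counts. The SD of log2 CPM over the 6 lines had a median of 0.50, with a 10th percentile of 0.24 and a 90th percentile of 1.17. With counting noise taken out, the common biological coefficient of variation was 0.474. Of the genes, 8914 (92.5%) varied beyond counting noise (edgeR goodness of fit to Poisson counts, adjusted p under 0.05).

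A stricter question is which genes vary more than other genes of like abundance. Against the abundance trend of the dispersion, 576 genes (5.98%) did so (edgeR goodness of fit with the trended dispersion, Benjamini-Hochberg adjusted p under 0.05), and these are called the variable genes below. Their median SD was 1.78 on the log2 scale, against 0.48 for the other genes. The share of variable genes was 7.92% below a mean of 10 CPM, 6.91% from 10 to 50 CPM, 4.91% from 50 to 200 CPM and 3.97% from 200 to 1000 CPM. At 1000 CPM or more it was 5.48%, from 4 of 73 genes. It was 5.87% among genes with 1 listed exon and 6.66% among genes with 10 or more. In counts simulated for these 6 lines (9428 genes tested), 200 genes were each changed in 1 line. A 16-fold rise was called for 95.5% of 22 genes and a 16-fold fall for 17.9% of 28. At 8-fold it was 47.8% of 23 raised genes and 7.41% of 27 lowered genes. At 4-fold it was 17.2% of 29 and 0% of 21. In that simulation genes low in a single line were thus called less often than genes high in one.

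**Figure D1:**
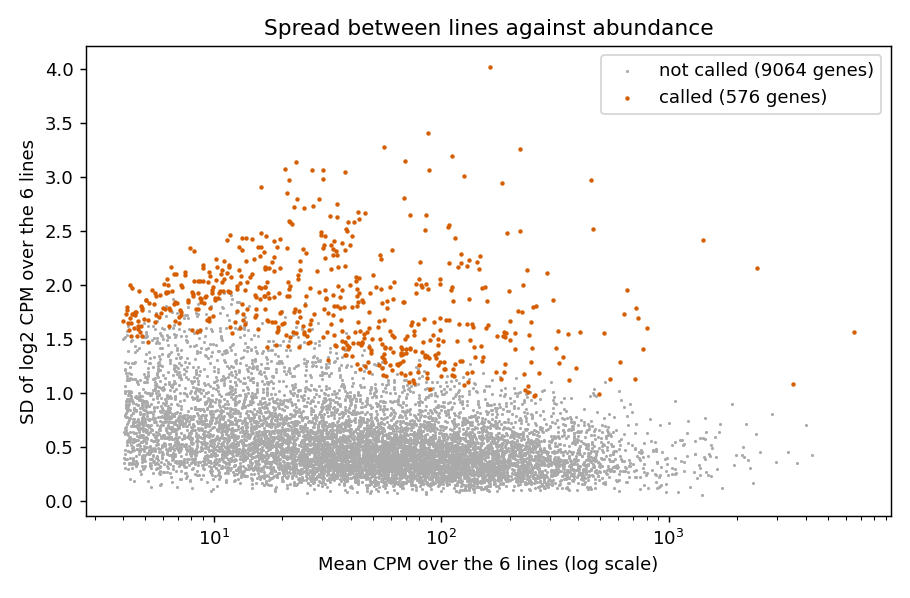
Each point is 1 of the 9640 genes, with its mean CPM over the 6 lines on a log axis and the SD of its log2 CPM on the other axis. The 576 variable genes, in orange, have a median SD of 1.78, against 0.48 for the other genes, in grey.

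Lines 1 and 5 stood at the ends of the main axis of difference. The first principal component of log2 CPM held 45.5% of the variance and ordered the lines as line 1 (-76.6), line 4 (-25.3), line 3 (-14.6), line 6 (12.3), line 2 (41.1) and line 5 (63.2). The second component held 26.4%, and put lines 1 (-43.9) and 5 (-47.3) on one side and lines 4 (31.5) and 6 (44.0) on the other. Between lines 1 and 5, 40.1% of the genes differed by more than 2-fold in CPM. Between lines 2 and 5, the closest pair, 12.2% did, and between lines 3 and 4 12.5% did. The variable genes, 5.98% of those examined, held 39.6% of the squared weights of the first component and 41.7% of those of the second. These weights grow with a gene's spread, and the variable genes were called for their spread over the same 6 lines. A share above 5.98% was therefore built in.

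Properties of the libraries also differed, with line 1 at the extreme, and in part they followed the order of this axis. Exons of 1500 bases or more took 23.6% of the counts of multi-exon genes in line 1, 18.4% in lines 3 and 4, 18.98% in line 6, 16.5% in line 2 and 16.3% in line 5. Along the axis from line 1 to line 5 this share fell, except in line 6. Genes of chromosome 19 deviated from their own 6-line mean by a median of -0.67 on the log2 scale in line 1, -0.10 in line 3 and 0.09 in line 4, and by 0.20 to 0.22 in lines 2, 5 and 6. Line 1 was also the smallest library. The part of these properties in this axis and in the differences below was not tested. When only exons under 1000 bases were summed, 524 of 9159 genes were variable, among them 447 of the 509 original variable genes that could still be examined. Without line 1, 520 of 9628 genes were variable, and without line 5, 400 of 9573. Without both, 308 of 9550 were, 242 of them among the original 576.

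**Figure D2:**
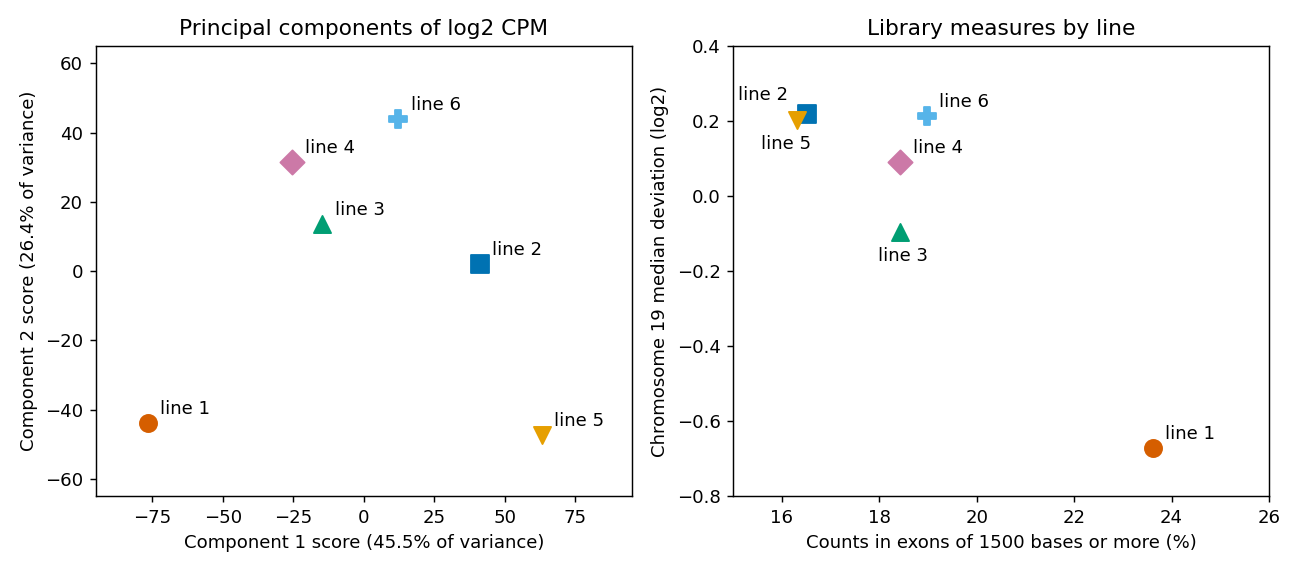
Left, the scores of the 6 lines on the first and second principal components of log2 CPM. Right, each line's percent of counts in exons of 1500 bases or more against its median deviation of chromosome 19 genes on the log2 scale, where line 1 stands alone at 23.6% and -0.67.

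The most abundant genes were compared per length, as RPKM (CPM per kilobase of listed exon). The 20 highest had means from 1854 to 16532 RPKM, against a median of 27.4 RPKM over all genes examined. They are short: 18 of the 20 had under 1000 bases of listed exons, and 12 had 1 listed exon, so that a level rests on few bases. Only 9 genes were among the top 20 of all 6 lines, and 36 genes were in the top 20 of at least 1 line. Of the 20 genes, 5 were variable, where 5.98% of all genes were.

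The highest of all was a gene of 1 exon on chromosome 14, from 105391493 to 105391887. Its level was 2266 RPKM in line 1, 29905 in line 2, 7146 in line 3, 5354 in line 4, 31807 in line 5 and 22715 in line 6. Lines 2, 5 and 6 stood well above the other 3. It was variable (edgeR adjusted p = 0.00011) and took a mean of 0.647% of all counts.

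The second, with 2 listed exons on chromosome 15 from 42790977 to 42795191, was far steadier. It had 10807, 14199, 8057, 13165, 10549 and 6548 RPKM in lines 1 to 6 and was among the first 3 genes in each line. The next, 1 exon on chromosome 2 from 84987024 to 84987310, ranged from 4484 RPKM in line 1 to 11845 in line 2. Another on chromosome 2, from 88942148 to 88942190, rests on 1 exon of 43 bases. It had 3732, 22838, 620, 749, 11405 and 1475 RPKM in lines 1 to 6, so that lines 2 and 5 were again highest, and it was variable.

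Other abundant genes changed rank between lines without being variable. A gene of 5 exons on chromosome 5, from 149762877 to 149767080, ranged from 3385 RPKM in line 1 to 10245 in line 5, with a mean of 6677 ± 3012 (SD, n = 6). A gene of 6 exons on chromosome 5, from 180596536 to 180603512, ranged from 2141 RPKM in line 1 to 5165 in line 5. On chromosome 19, from 12910423 to 12915443, a gene of 7 exons had its lowest level, 794 RPKM, in line 1 and its highest, 3847, in line 5.

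By counts rather than per length, the 10 genes with the highest mean CPM took between 2.93% of the counts (line 3) and 4.402% (line 2). Variable among them, besides the chromosome 14 gene, were a gene of 1 exon on chromosome 16, from 55954917 to 55957600, and a gene of 7 exons on chromosome 10, from 17311250 to 17319591. The chromosome 16 gene had 8689 CPM in line 1 and from 967 to 3789 in the others. The chromosome 10 gene had 80.6 CPM in line 5 and from 1197 to 4085 in the others. Line 5 thus stood far below the rest in the chromosome 10 gene. In the chromosome 16 gene line 1 was highest, but the other lines also differed widely among themselves.

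Of the 4670 genes averaging 50 CPM or more, 219 were variable (4.69%). The most variable was ENSG00000211663, 1 exon on chromosome 22 from 21393340 to 21393640. It had 376 CPM in line 2 and 596 in line 6, but 6.10 in line 3, 10.996 in line 4 and 0.831 in line 5. Line 1 had 0 counts. The files list only exons with at least 1 count, and a gene with none listed is given as 0. Lines 2 and 6 thus stood far above the other 4, and the log2 SD was 4.01 (edgeR adjusted p = 7.42e-31). The genes with the most similar pattern, by Pearson's r of log2 CPM over the 6 lines, were led by a gene of 5 exons on chromosome 9, from 35639300 to 35640947 (r = 0.988), from 7.06 CPM in line 5 to 98.6 in line 6. An r of 0.9 or more was reached by 49 of 6962 genes. Over only 6 points unrelated genes can also reach such an r, and the number carries no test. The gene next in similarity, on chromosome 17 from 43270057 to 43273641 (r = 0.981), had a log2 SD of 0.69 and was not variable.

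ENSG00000177494, 1 exon on chromosome 3 from 112794437 to 112796603, came next, with a log2 SD of 3.41 (edgeR adjusted p = 6.19e-12). It had 0 counts in line 1, 2.08 CPM in line 5, 69.7 in line 2 and between 134 and 167 in lines 3, 4 and 6. Lines 1 and 5 stood below the other 4. Without those 2 lines its log2 SD was 0.56 and it was no longer variable.

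Another gene, 7 exons on chromosome 8 from 39890485 to 39902047, was high in 1 line. It had 315 CPM in line 1, 1.68 in line 2, 6.86 in line 3 and 11.4 in line 4, and 0 counts in lines 5 and 6. Close behind in the same order of lines was a gene of 9 exons on chromosome 1, from 184907592 to 184915193. It had 536 CPM in line 1, 69.1 in line 4, 47.2 in line 3, 13.9 in line 2, 2.69 in line 6 and 0.415 in line 5. A gene of 13 exons on chromosome 9 (74705408 to 74757792) had 695 CPM in line 1 and from 0.827 to 24.8 elsewhere. Without line 1 its log2 SD was 1.71 and it was no longer variable.

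Some genes well expressed in the other lines were near 0 in line 5. On chromosome 8, from 134118155 to 134156557, a gene of 8 exons had 0.415 CPM in line 5, against 68.5, 72.6, 192, 604 and 401 in lines 1, 2, 3, 4 and 6. On chromosome 2, from 99530150 to 100088477, a gene of 22 exons had 0.831 CPM in line 5 and from 88.6 to 322 in the others. Without line 5 its log2 SD was 0.82 and it was no longer variable. On chromosome 9, from 116822627 to 116920307, a gene of 26 exons had 3.74 CPM in line 5, 94.0 in line 2, 119 in line 6 and between 653 and 1069 in lines 1, 3 and 4. Line 5 alone was the lowest of the 6 in 9 of the 20 most variable genes and line 1 alone in 6, and in 1 gene lines 5 and 6 were tied at 0.

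Other genes were highest in line 5. A gene of 9 exons lies on chromosome 6, from 166490785 to 166502121. It had 462 CPM in line 5, 37.4 in line 6, 18.7 in line 3, 9.66 in line 2 and 5.89 in line 4, with 0 counts in line 1. A gene of 16 exons on chromosome 1 (205694293 to 205729859) had 875 CPM in line 5, 128 in line 1, 121 in line 3 and from 7.85 to 18.4 in lines 2, 4 and 6. Across all 576 variable genes, line 1 was the highest line in 27.4% and line 5 in 26.04%, against 28.4% and 19.6% of all genes examined. With 24 genes tied at 0 set aside, line 5 was the lowest in 32.2% of variable genes and 19.5% of all, and line 1 in 29.2% and 30.5%.

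**Figure D3:**
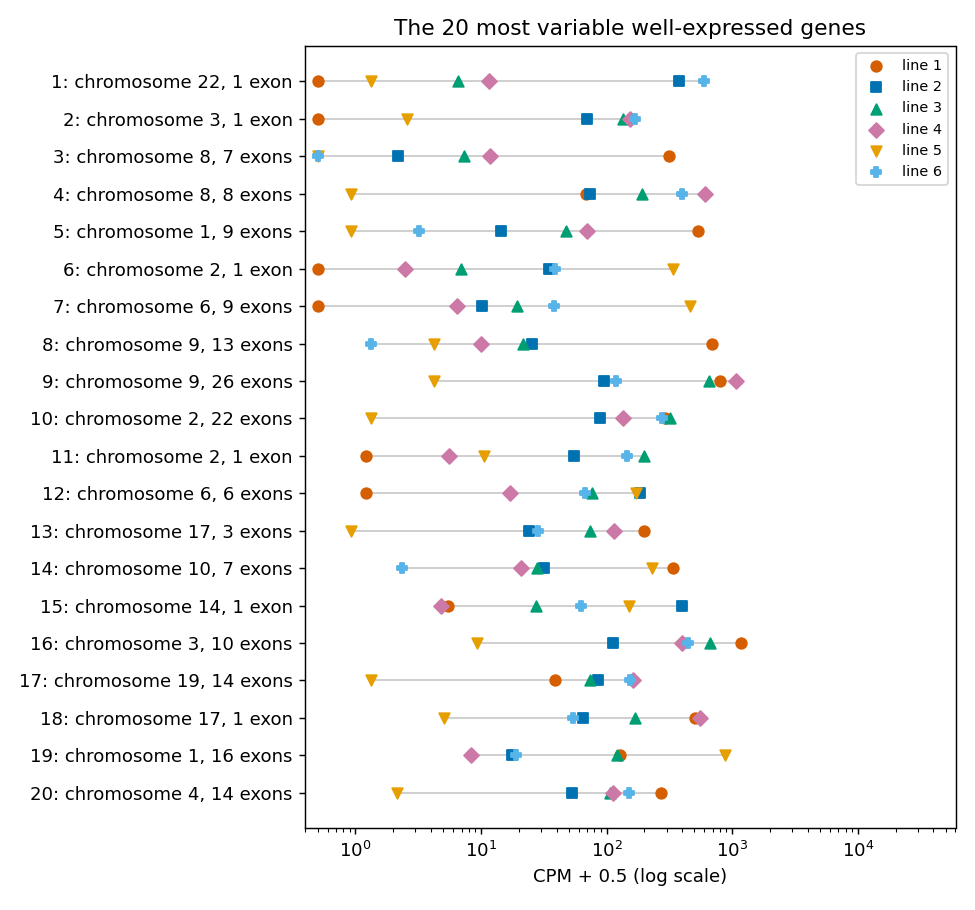
CPM of the 20 most variable genes averaging 50 CPM or more, 1 row per gene with its rank, chromosome and number of listed exons, and 1 marker per line, on a log axis after adding 0.5. Line 5 alone is the lowest marker in 9 rows and line 1 in 6.

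At the other end, some well-expressed genes hardly differed. ENSG00000071127, 12 exons on chromosome 4 (9685062 to 9726956), had 1446, 1354, 1401, 1460, 1427 and 1319 CPM in lines 1 to 6. Its highest line was 1.11-fold its lowest, and the log2 SD was 0.06. ENSG00000111642, 36 exons on chromosome 12 from 6549510 to 6581924, ranged from 916 CPM in line 3 to 1057 in line 1, a ratio of 1.155. The 10 steadiest of the 1231 genes averaging 200 CPM or more had ratios between 1.11 and 1.22, while the median SD of those 1231 genes was 0.39.

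Clustering placed most of the better-expressed variable genes in a few groups. Clustering of the 469 variable genes averaging 10 CPM or more by the correlation of their log2 CPM over the 6 lines gave 6 groups of at least 20 genes, which held 436 genes (93.0%). The groups were made from the same values that describe them, so they carry no test. No other set of genes was clustered in this way, so the 93.0% has no share to be set beside it. Groups are lettered by size, and levels in them are mean deviations from each gene's own 6-line mean, on the log2 scale, with the SD over the group's genes.

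Group A (134 genes) was high in lines 5 (2.32 ± 1.01) and 2 (1.33 ± 1.01) and low in lines 1 (-1.78 ± 1.204) and 4 (-1.58 ± 0.81). All 134 genes were above their mean in line 5 and 2 were in line 4. Its most abundant member was the leading gene on chromosome 14 described above. Next came a gene of 7 exons on chromosome 11, from 59979858 to 59994801, with 94.9, 1221, 170, 139, 1620 and 559 CPM in lines 1 to 6. A gene of 5 exons on chromosome 6 (31647810 to 31650080) had 1144 CPM in line 5, 796 in line 2 and from 85.7 to 173 in the others. Without line 5, 75 of the 134 genes were still variable. Of all original variable genes that could still be examined without line 5, 355 of 524 were. In the group counts, here and below, a member no longer examined counts as not variable, while the figures for all original variable genes leave such genes out. A group set apart by a line loses calls without that line because of how it was made. These counts are therefore descriptions with no test.

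Group B (110 genes) was high in line 1 (2.39 ± 0.95), somewhat high in lines 3 (0.55 ± 0.94) and 4 (0.61 ± 0.74) and low in lines 5 (-1.58 ± 1.01), 2 (-1.05 ± 0.68) and 6 (-0.92 ± 0.98). All 110 genes were above their mean in line 1. A gene of 4 exons on chromosome 4 (77141647 to 77147686) had 5680, 355, 1035, 1051, 36.1 and 324 CPM in lines 1 to 6. A gene of 12 exons on chromosome 12 (24855545 to 24993499) had 1737 CPM in line 1, 1211 in line 3, 915 in line 4 and from 160 to 404 in the others. Without line 1, 50 of the 110 genes were still variable, against 424 of the 547 original variable genes that could still be examined.

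Group C (87 genes) was low in line 5 (-3.10 ± 1.06). No gene of the group was above its mean there, and lines 3 (1.12 ± 0.86) and 4 (1.44 ± 0.80) were highest. The chromosome 10 gene with 80.6 CPM in line 5 leads it by abundance. A gene of 9 exons on chromosome 2 (85475382 to 85482792) had 658, 440, 853, 1672, 44.4 and 656 CPM in lines 1 to 6, and a gene of 2 exons on chromosome 16 (83156738 to 83181369) had 53.2 CPM in line 5 and from 433 to 1199 in the others. Without line 5, 28 of the 87 genes were still variable, against 355 of the 524 original variable genes that could still be examined.

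Group D (59 genes) was low in both line 1 (-2.18 ± 1.151) and line 5 (-1.99 ± 0.84) and high in lines 4 (1.74 ± 0.95) and 6 (1.66 ± 1.09). A gene of 3 exons on chromosome 14 (54674516 to 54679220) had 22.8, 164, 764, 342, 78.9 and 489 CPM in lines 1 to 6. Group E (25 genes) was the reverse in lines 1 (2.08 ± 0.69) and 5 (1.67 ± 0.89) and low in line 6 (-2.14 ± 0.74). A gene of 51 exons on chromosome 10 (95059767 to 95232064) had 618 CPM in line 1, 801 in line 5, 60.8 in line 6 and from 127 to 168 in lines 2, 3 and 4. None of the 25 genes had a single listed exon.

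Group F (21 genes) was low in line 1 (-3.23 ± 0.93), where no gene was above its mean, and differed less among the other 5. A gene of 26 exons on chromosome 19 (45797148 to 45827565) had 2.85 CPM in line 1 and from 84.8 to 225 elsewhere. Without line 1, 4 of the 21 genes were still variable, against 424 of the 547 original variable genes that could still be examined. In all 6 groups the median pairwise correlation of members was between 0.765 and 0.815. On exons under 1000 bases alone it was between 0.749 and 0.802. The grouping, by average linkage cut at a distance (1 minus r) of 0.5, itself makes these medians high. Single pairs went down to -0.245, in group C.

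**Figure D4:**
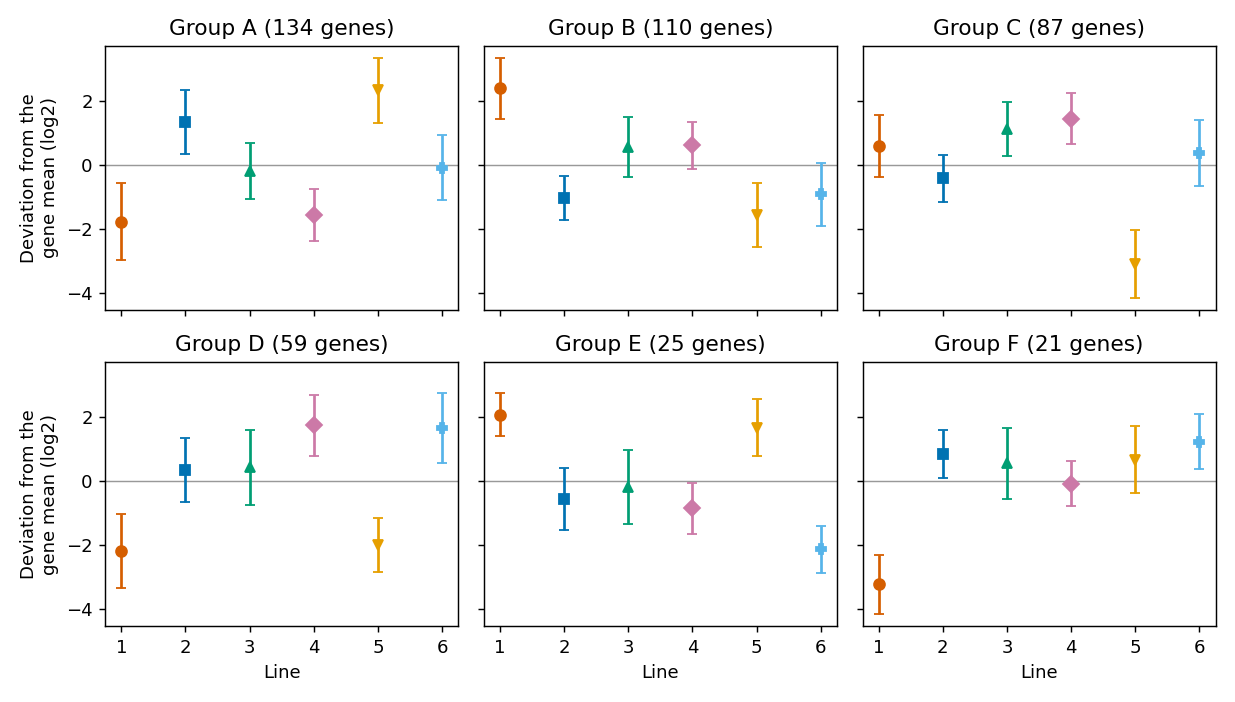
Mean deviation of each group's genes from their own 6-line mean, on the log2 scale, by line. Bars are the SD over genes. Group C is low in line 5 at -3.10 and group F is low in line 1 at -3.23.

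Variable genes that are neighbours often shared a pattern. Within 200 kb, 49 pairs of adjacent genes were both variable, with a median Pearson's r of 0.809 over the 6 lines, and 25 of them (51.0%) reached 0.8. Of all 7443 adjacent pairs within 200 kb, 935 (12.6%) did. Of the 49 pairs, 2 overlapped, and these shares are descriptions over 6 points with no test. The median r of all adjacent pairs was 0.387 up to 10 kb apart, 0.192 from 50 to 200 kb and 0.152 beyond 1 Mb. There were 11 runs of at least 3 adjacent genes that were all variable, a rule chosen after the data were seen.

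In several runs the genes followed the same lines. On chromosome 4, 4 neighbours from 77141647 to 77252964 were all highest in line 1, by 5680, 2395, 27.8 and 32.1 CPM, and all lowest in line 5, at 36.1, 36.5, 0.415 and 0 CPM. Their lowest pairwise r was 0.886. On chromosome 7, 3 neighbours from 16605932 to 16785266 were nearly absent from line 5, at 0, 4.98 and 0 CPM. In the other lines they ranged from 11.3 to 69.2, from 40.3 to 281 and from 1.26 to 22.4 CPM.

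On chromosome 17, 3 neighbours from 43565801 to 44009381 were high in lines 2 and 5 and low in lines 1 and 4. The first had 114 and 111 CPM in lines 2 and 5, 27.8 and 41.7 in lines 3 and 6, and 4.28 and 3.53 in lines 1 and 4. On chromosome 1, 3 neighbours from 151773699 to 151873192 were highest in line 4 (748, 354 and 50.7 CPM) and next highest in line 3 (423, 241 and 24.4 CPM). On chromosome 13, a pair of genes of 44 and 37 exons between 109599312 and 109963375 had 73.4 and 62.0 CPM in line 6, 47.5 and 53.4 in line 4 and at most 11.8 in the others. The remaining gene of that run, at 109204185, was highest in line 4 (39.7 CPM) and next in line 3 (24.4 CPM), with 9.51 CPM in line 6, and the lowest pairwise r of the 3 was 0.532.

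Other runs held differing patterns side by side. On chromosome 2, 5 short genes between 88942148 and 89012587 were highest in different lines. In order along the chromosome they peaked in line 2 (982 CPM), line 3 (147 CPM), line 3 (197 CPM), line 2 (149 CPM) and line 5 (336 CPM). The first, second and last of these are nevertheless all in group A, and the first was next highest in line 5 (490 CPM). On chromosome 14, 3 short genes between 105401470 and 105477101 were highest in line 2 (396 CPM), line 4 (71.9 CPM) and line 2 (176 CPM). The chromosome 2 run goes on to a gene at 95055156, highest in line 4 (22.4 CPM), and over its 6 genes the lowest pairwise r was -0.842. It was -0.268 over the 3 genes on chromosome 14.

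In line 3, a long stretch of chromosome 20 lay below the 6-line mean. The 186 genes of chromosome 20 that start at or after 30 Mb had a median deviation of -0.39 in line 3 on the log2 scale, against -0.17 in line 1 and between 0.12 and 0.14 in lines 2, 4, 5 and 6. Of the 186 genes, 163 (87.6%) lay below their mean in line 3, and 1 was highest there. The 96 genes before 30 Mb went the other way in line 3, with a median of 0.22 and 29 genes below their mean, against medians from -0.08 to 0.06 in the other lines. Over 1826 windows of 25 neighbouring genes in all chromosomes, both the lowest (-0.55) and the highest (0.38) median of line 3 lay on chromosome 20. The boundary was set after the data were seen. Such shifts were wider in line 1, whose window medians had an SD of 0.399 against 0.131 in line 3. Line 1 was also below line 3 in the last 5 windows of chromosome 20, down to -0.67, and stood at a median of -0.47 over the 228 genes of chromosome 22. Of the 186 genes, 8 were variable (4.30%, against 5.98% of all genes). In the alternatives run for it (scaling, filter, prior count, depth, exons used and lines omitted), the median stayed between -0.29 and -0.40.

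**Figure D5:**
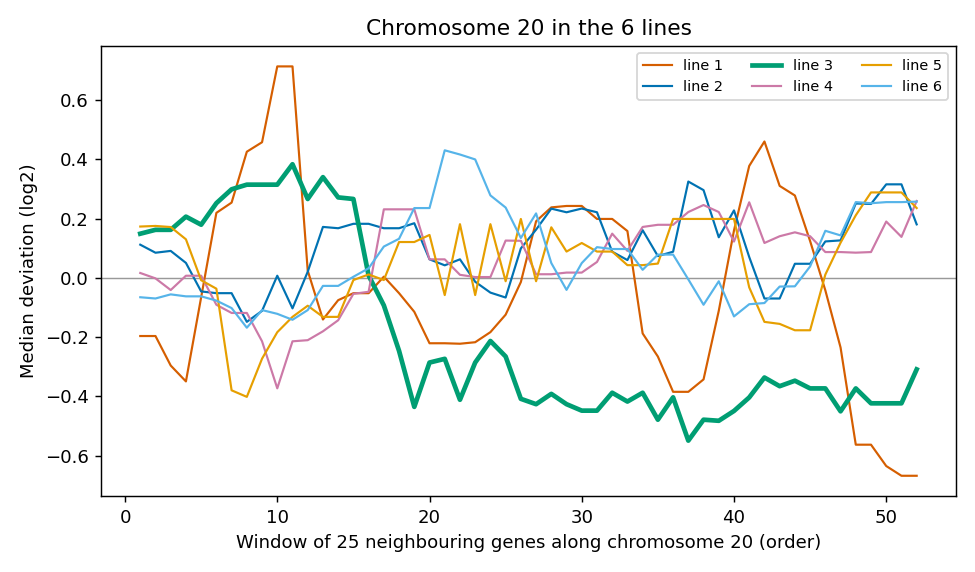
Median deviation on the log2 scale in windows of 25 neighbouring genes along chromosome 20, in gene order, for the 6 lines. Line 3, the thick line, is above 0 over the first 16 windows and below 0 in all later ones, down to -0.55.

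The share of counts per exon within genes also differed, by a wide range in some exons. In 4422 genes with at least 3 listed exons and at least 50 counts in every line, an exon's share of its gene's counts had a median range of 3.72 percentage points over the lines. Among the 30 exons with the widest range, 27 were the first or last listed exon of their gene by coordinate, against 15.7% of all exons compared. These shares were not matched for the number of exons per gene. Many of the 30 came from genes of only 3 listed exons, where most exons are first or last. Some genes also supplied more than 1 of the 30. Line 1 had the highest share in 16 of these exons and the lowest in 11, an extreme in 90% of them, against 44.6% of all exons compared (ties not counted). The widest range, 80.5 percentage points, was in an exon that is neither first nor last, on chromosome 5 from 142566956 to 142567231. That exon took 97.4% of its gene's 312 counts in line 1 and 16.9% of 118 counts in line 5. In a gene of 3 exons on chromosome 1, the last exon by coordinate, from 28436935 to 28437196, took 77.3% of the gene's 220 counts in line 1 (95% Wilson interval 71.3% to 82.3%). It took 15.4% of 751 counts in line 5 (13.0% to 18.2%), and from 18.9% to 45.2% in the other 4 lines. In a gene of 3 exons on chromosome 17, the exon from 6484946 to 6485271 took 9.80% of 51 counts in line 1 (4.26% to 20.98%) and 75.6% of 168 counts in line 5 (68.6% to 81.5%). These intervals cover counting error only, since amplified reads without molecular tags are not independent molecules. Exon shares were ranked by size after the data were seen and carry no test, and their part in the differences between gene levels was not tested.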

How the data were processed

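RNA of 6 chimpanzee lymphoblastoid lines was sequenced on a Genome Analyzer II, per the labels' protocols. The authors deposited raw read counts per exon, with gene, chromosome and position in each row name, as the files show. The aligner and annotation are not named. The 6 rhesus macaque libraries were not used, and 0 value columns were left out.

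Counts were summed per gene (R 4.3.3). The test used edgeR 4.0.16 on genes averaging 4 CPM or more: TMM scaling, an intercept-only fit, goodness of fit against the trended dispersion or against Poisson counts, and Benjamini-Hochberg adjustment at 0.05. Log2 CPM used a prior count of 2. RPKM used the bases of listed exons. The fit was tested on simulated data with 200 genes changed in 1 line. DESeq2 1.42.0 gave alternative size factors and dispersion outliers.

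Genes named were the 20 highest by RPKM, the 20 most variable averaging 50 CPM or more, the 10 steadiest averaging 200 CPM or more, the 6 leading genes at each end of both components, the 5 most abundant of each group and the 5 most like the first variable gene. Examples were taken from these. Runs of neighbours, chromosome 20 and exon shares were chosen after their values were seen. Lists for interferon, NF-kB, cell cycle and cell types need gene names and were not run. The genes, lists and tests were chosen with earlier results of these data known. Alternatives changed the scaling, filter, prior count, depth, exons and lines.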

Additional observations from a re-analysis of the deposited data

Results flagged for a closer look

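A line was singled out when its gap to the nearest other line, over the range of all 6, passed Dixon's 95% critical value for 6 values. Chance alone passes about 1 in 20 sets. Gene levels entered on the log2 scale after adding 0.5. Here 9 of 77 sets passed (11.7%), and many of the sets are genes picked for a wide spread. The sets also include means of groups made from the same 6 lines, so a pass by a group carries no test. Line 6 had the highest total, 4751954 counts. Line 1 had the highest share of counts in long exons, 23.6%, the lowest chromosome 19 deviation, -0.67 on the log2 scale, and the lowest mean deviation of group F, -3.23. Line 5 was far below the others in 5 genes. It had 0.415 CPM of the gene on chromosome 8 at 134118155, 0.831 CPM of the gene on chromosome 2 at 99530150 and 80.6 CPM of the gene on chromosome 10 at 17311250. It also had 0.831 CPM of a gene of 14 exons on chromosome 19, from 8493261 to 8548330, where the other lines had from 38.5 to 162 CPM. The last, 14 exons on chromosome 4 (102930787 to 103214990), had 1.66 CPM in line 5 and from 52.9 to 269 in the others.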

How the results depend on the processing

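The count of 576 variable genes was 291 of 8032 under a stricter filter. That filter required, in all 6 lines, the CPM equal to 10 counts in a library of median size. It leaves out genes at 0 in a line and kept 4 of the 20 named variable genes. The count was 308 without lines 1 and 5, an alternative chosen after seeing the data, and 84 as DESeq2 dispersion outliers, all 84 among the 576. Leaving out each line gave 400 to 520. The median SD of 0.50 was 0.45 under the stricter filter, 0.39 without lines 1 and 5, and 0.41 to 0.52 leaving out each line. The coefficient of variation of 0.474 was 0.380, 0.378 and 0.428 to 0.501. The first component's 45.5% was 41.3% both with no filter and after thinning, and 45.8% to 53.6% leaving out each line. The count beyond counting noise stayed within 1.5 times the reported one. The causes were not tested. Of the other named variable genes, those on chromosomes 19 (8493261) and 4 (102930787) were no longer variable without line 5, at a log2 SD of 0.84 in each, and neither they nor those on chromosomes 6 (166490785), 2 (99530150) and 17 (29606409) were without lines 1 and 5. Group E kept 16 of its 25 genes without line 6, against 472 of the 572 original variable genes that could still be examined. Alternatives for gene lists were not run, since no list could be matched. No paired analysis was possible because the 6 lines form 1 group. Depth limits genes of few counts: line 1 has the fewest.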

Other observations

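Several genes at the ends of the second component were high in both lines 1 and 5. A gene of 7 exons on chromosome 10 (15293652 to 15366110) had 339 CPM in line 1, 229 in line 5, from 20.4 to 31.5 in lines 2, 3 and 4, and 1.86 in line 6. A gene of 5 exons on chromosome 1 (168899937 to 168975165) had 248 CPM in line 1, 208 in line 5, 120 in line 3 and from 14.3 to 34.6 in lines 2, 4 and 6. At the other end, a gene of 5 exons on chromosome 4 (1150725 to 1155862) had 19.3 CPM in line 1, 3.74 in line 5 and from 103 to 238 in the others.

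Sorted by level, 330 of the 576 variable genes (57.3%) had their widest gap between 1 line and the other 5, against 59.1% of all genes examined. Line 5 alone was low in 77 variable genes (13.4%, against 5.49% of all genes) and alone high in 70 (12.2%, against 4.49%). Line 1 alone was high in 64 (11.1%, against 12.7%) and alone low in 46 (7.99%, against 15.4%). Lines 2 and 5 were high together in 38 (6.60%, against 3.25%). These shares are descriptions with no test.

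In 1468 exons of 1500 bases or more, the median share of the gene's counts was 59.0% in line 1 and 58.7% in line 6, and from 49.0% to 52.8% in the other 4 lines. Lines 1 and 6 were the smallest and the largest library.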
